A study of Mus musculus with 4 samples.

Results

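The 8 genes described here, *Ppp1r1a*, *Wnt4*, *Gatsl2*, *C2cd4b*, *Ttc28*, *Mlxipl*, *Kdm2b* and *Fam151a*, were 8 of the 31053 genes measured in each library of a single-cell RNA-seq (scRNA-seq) study of mouse islets. They were selected on measured values of these same libraries, as leading genes of untreated β-cells or as genes with large decreases after cytokine, so their β-cell levels and ratios are given as a description and no test is made of them. Islets of adult male C57BL/6 mice (C57BL6/J in the study's methods) were pooled across animals and divided into 4 samples. They were left untreated, or kept for 6 h with IL-1β, IFN-γ or the pair of cytokines, before dissociation. No transgene or other allele is described. Each condition is 1 library, so an effect of treatment and a difference between libraries cannot be told apart, no p-value is given, and every interval below is a 95% interval that covers counting error only.

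Each value counts unique molecular identifiers (UMIs), which mark single captured RNA molecules, and a level is the number of UMIs of a gene per 1000000 UMIs (CPM) summed over the cells of a type. The chemistry reads the 3′ end of a transcript, and levels are compared here between libraries and cell types for the same gene, not between genes. Of 12571 barcodes, 7471 had 200 to 4000 genes and no more than 12% of their UMIs from mitochondrial genes, namely 1521 untreated, 2018 IL-1β, 2122 IFN-γ and 1810 doubly treated cells. By their leading hormone, 1190, 1165, 1285 and 1293 of these were β-cells in the same order, 88, 332, 287 and 164 were α-cells, and 25, 62, 106 and 45 were δ-cells. The median β-cell held 17125.5 UMIs in the untreated library, 8398 with IL-1β, 11082 under IFN-γ and 12249 with both, so single cells of the treated libraries were sampled less deeply. All 8 of the β-cell markers examined were highest in β-cells, as were 7 of 8 δ-cell markers in δ-cells, and *Gcg*, *Ttr* and *Gc* were highest in α-cells. The δ-cell marker *Cckbr* had no UMI in any endocrine type. In all, 16 barcodes occurred in more than 1 library.

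β-cells take up glucose, secrete insulin and keep this coupling under the control of a small set of transcription factors, of which *Mafa* and *Pdx1* are the best known. The genes below belong to other layers of the same cell. *Ppp1r1a* encodes protein phosphatase inhibitor-1, which blocks protein phosphatase-1 once protein kinase A has phosphorylated it. *Wnt4* encodes a secreted Wnt ligand, and *Gatsl2*, named *Castor2* in current annotation, encodes a relative of the cytosolic arginine sensor that acts upstream of the growth kinase mTORC1. *Mlxipl* encodes ChREBP, the transcription factor that answers to glucose metabolites together with its partner Mlx, and *Kdm2b* encodes a histone demethylase that binds unmethylated CpG-rich DNA and belongs to a Polycomb complex. *C2cd4b* encodes a nuclear C2-domain protein whose human counterpart lies at a locus associated with type 2 diabetes. *Ttc28* encodes a large tetratricopeptide repeat protein, and *Fam151a* a membrane protein of little known function.

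On GRCm38 (GENCODE M21), *Ppp1r1a* lies at chr15:103530279-103538003 on the minus strand, *Wnt4* at chr4:137277489-137299726 and *Fam151a* at chr4:106733889-106748292. *C2cd4b* lies at chr9:67759437-67760930, and *Ttc28*, *Kdm2b*, *Gatsl2* and *Mlxipl* are all on chromosome 5, at chr5:110879803-111289780, chr5:122870665-122989823, chr5:134099711-134144343 and chr5:135089890-135138382. Thus 4 of the 8 genes were on a chromosome that held 6.66% of the genes tested in β-cells, a count noticed after the genes had been chosen.

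The promoters differed widely in CpG content. RefSeq promoter sequences (GRCm38.p6) matched 7 of the 8 genes. Windows of 250 bases before the RefSeq start were examined. Because the GENCODE gene begins earlier than the RefSeq start for 3 of the genes shown, the printed stretch ends before both starts. Shown are *Wnt4* (chr4:137277385-137277488), whose window was the most CpG-rich among the genes, *Gatsl2* (chr5:134099498-134099710), with the largest β-cell decrease under IL-1β, *C2cd4b* (chr9:67759187-67759436), which was higher under IL-1β, and *Fam151a* (chr4:106733665-106733888), with the smallest decrease under IL-1β. All 4 are on the plus strand, are written 5′ to 3′, and show CpG dinucleotides in capitals.
Wnt4: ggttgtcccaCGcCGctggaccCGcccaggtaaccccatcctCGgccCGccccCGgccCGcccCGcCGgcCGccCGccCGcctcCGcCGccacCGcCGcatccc
Gatsl2: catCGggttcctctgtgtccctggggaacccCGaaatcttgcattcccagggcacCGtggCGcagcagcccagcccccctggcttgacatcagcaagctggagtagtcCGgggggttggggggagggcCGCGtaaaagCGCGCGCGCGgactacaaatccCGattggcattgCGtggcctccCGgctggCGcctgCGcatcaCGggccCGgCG
C2cd4b: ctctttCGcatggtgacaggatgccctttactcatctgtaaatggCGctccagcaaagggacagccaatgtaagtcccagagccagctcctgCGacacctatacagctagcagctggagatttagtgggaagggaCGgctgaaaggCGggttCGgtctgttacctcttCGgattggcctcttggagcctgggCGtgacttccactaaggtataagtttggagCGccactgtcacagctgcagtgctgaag
Fam151a: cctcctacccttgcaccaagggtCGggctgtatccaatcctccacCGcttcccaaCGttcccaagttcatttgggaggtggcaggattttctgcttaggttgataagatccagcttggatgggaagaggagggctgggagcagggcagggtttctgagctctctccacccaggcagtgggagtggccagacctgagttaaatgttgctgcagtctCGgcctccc
The full *Wnt4* window held 44 CpG dinucleotides, *Gatsl2* 21, *C2cd4b* 9 and *Fam151a* 4, against a median of 6 over the 32851 windows of the same length in the table. *Ttc28* held 36, the 2 *Mlxipl* windows 8 and 18, and the 4 *Kdm2b* windows between 12 and 38. Both strands were also searched for 4 motifs in simplified form, with no overlap among the matches. The Maf half-site TGCTGA matched once in the *Gatsl2* window, once in the *C2cd4b* window and once in 1 of the *Kdm2b* windows, and 16.1% of all windows held it. The E-box CACGTG matched 1 *Mlxipl* window and 6.02% of all windows. Neither the interferon-activated site TTCNNNGAA (7.02% of all windows) nor the κB form GGGNNTTCC (4.98%) matched in any window of these genes, which says only that these letters were not there.

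Among the signalling genes, *Ppp1r1a* in β-cells stood at 427 CPM untreated, 80.5 with IL-1β, 209 under IFN-γ and 90.6 with both cytokines. Its level was 5.31-fold lower with IL-1β (interval 4.94 to 5.72), 2.05-fold lower with IFN-γ (1.96 to 2.14) and 4.72-fold lower with both (4.46 to 4.99). Of the 8 genes, only this phosphatase inhibitor passed 2-fold with IFN-γ alone, and none did without the upper limit on genes per cell, where its log2 ratio was −0.996 against −1.03. *Wnt4* stood at 382 CPM untreated, 75.3 with IL-1β, 277 under IFN-γ and 103 with both, which is 5.08-fold lower with IL-1β (4.71 to 5.48), 1.38-fold lower with IFN-γ (1.33 to 1.43) and 3.69-fold lower with both (3.50 to 3.90). *Gatsl2* stood at 181 CPM untreated, 32.5 with IL-1β, 175 under IFN-γ and 38.4 with both. For this gene the untreated interval (175 to 187) and the IFN-γ interval (168 to 182) overlapped, as did those with IL-1β (29.0 to 36.2) and with both cytokines (35.4 to 41.6). The libraries formed a high pair and a low pair, 5.57-fold apart for IL-1β against untreated (4.97 to 6.26). Levels within a pair were not always equal. With both cytokines the ratio to IL-1β was 1.18 (1.03 to 1.36), an interval that excluded 1. With IFN-γ the level was 1.03-fold lower than untreated (0.983 to 1.09), and 1.29-fold lower with totals that omit the hormone genes.

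Of the regulators of transcription, *Mlxipl* stood at 143 CPM untreated, 27.1 with IL-1β, 97.6 under IFN-γ and 38.1 with both, 5.30-fold lower with IL-1β (4.68 to 6.02) and 3.76-fold lower with both (3.44 to 4.11). *Kdm2b* stood at 118 CPM untreated, 35.2 with IL-1β, 94.9 under IFN-γ and 23.0 with both, 3.34-fold lower with IL-1β (2.99 to 3.75) and 5.13-fold lower with both (4.59 to 5.74). IFN-γ alone took *Mlxipl* 1.47-fold lower (1.38 to 1.57) and *Kdm2b* 1.24-fold lower (1.16 to 1.33), so in each gene the 4 levels were ordered with untreated first and IFN-γ second, and the order of the other two libraries differed between these genes.

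*Ttc28* had the largest difference with the combination. It stood at 143 CPM untreated, 34.3 with IL-1β, 134 under IFN-γ and 19.5 with both, 4.18-fold lower with IL-1β (3.74 to 4.69) and 7.36-fold lower with both (6.54 to 8.29). With IFN-γ it was 1.07-fold lower, and the interval of that ratio (1.01 to 1.13) excluded 1 although the level intervals of the libraries overlapped. Of the 7 lowered genes *Fam151a* had the smallest decrease with IL-1β and with both, though not with IFN-γ, from 186 CPM untreated to 78.3 with IL-1β, 143 under IFN-γ and 99.8 with both, 2.37-fold lower with IL-1β (2.19 to 2.56) and 1.86-fold lower with both (1.75 to 1.97).

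Unlike the other genes, *C2cd4b* was not lower with IL-1β or with both cytokines. It stood at 223 CPM in untreated β-cells, 415 with IL-1β, 149 under IFN-γ and 273 with both. It was thus 1.86-fold higher with IL-1β (1.78 to 1.94) and 1.5-fold lower with IFN-γ (1.42 to 1.58). With both cytokines it was 1.22-fold higher (1.17 to 1.27), and 1.03-fold higher with totals that omit the hormone genes. A decrease in this gene was thus seen with IFN-γ alone and not in either library that had received IL-1β.

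**Figure D1:**
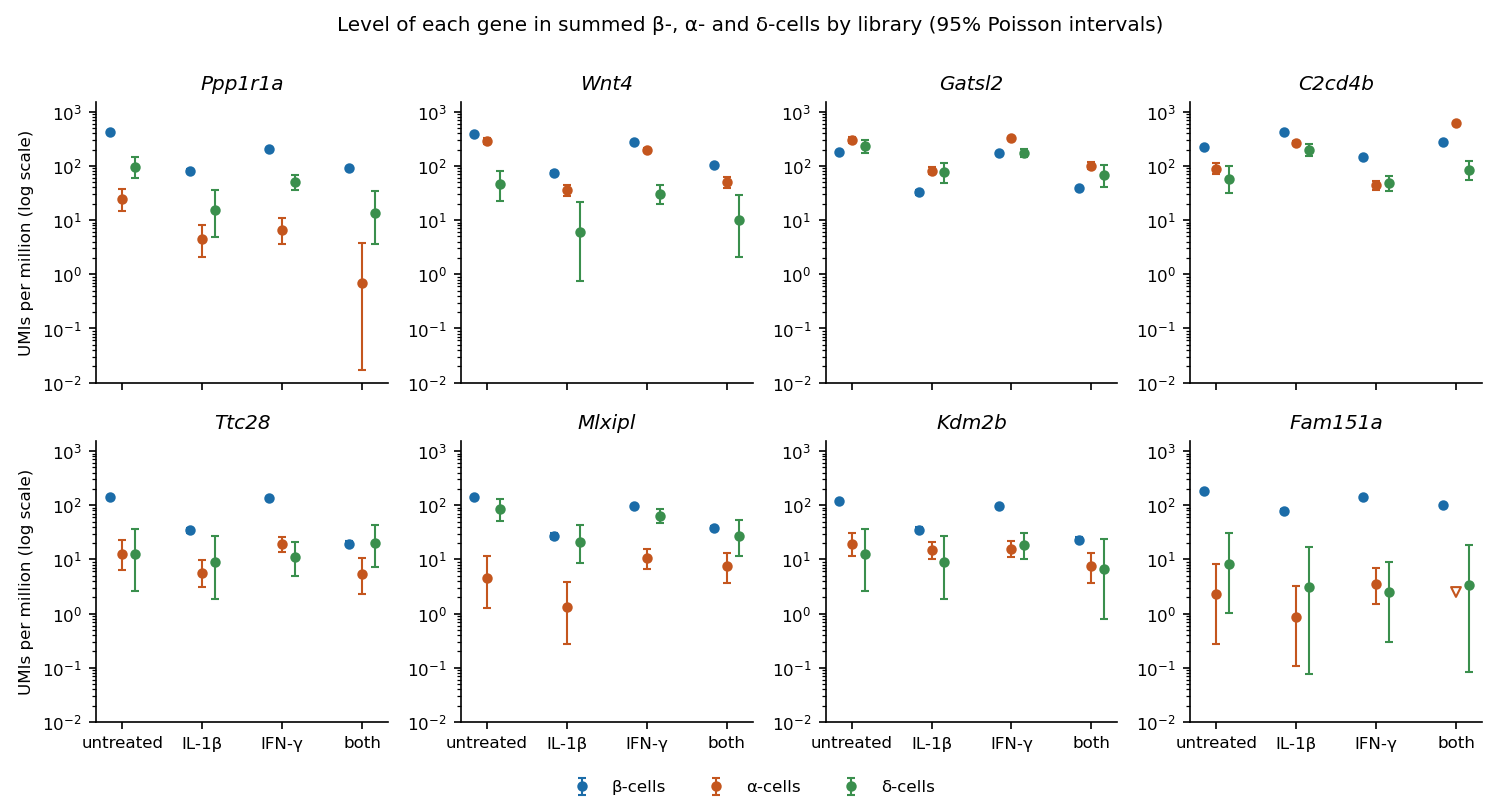
Level of each of the 8 genes in CPM (log scale) in β-cells (blue), α-cells (orange) and δ-cells (green) of the 4 libraries. Points are sums over the cells of a type, bars are 95% Poisson intervals, and the open triangle marks the upper limit where no UMI was counted. *Ppp1r1a* in β-cells runs from 427 untreated to 80.5 with IL-1β, while *C2cd4b* in β-cells runs from 223 to 415.

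Against the untreated library, 7 of the 8 genes were at least 2-fold lower in β-cells with IL-1β, 1 under IFN-γ and 6 with both cytokines. Over the 9222 genes with a mean of at least 5 CPM, the shares that were as much lower were 3.72%, 0.141% and 7.66%, and because the genes were selected on these contrasts nothing is read from the comparison. As much higher were 16.8% of genes with IL-1β, 4.64% under IFN-γ and 10.8% with both. In the ranking of all tested genes from the lowest ratio with IL-1β, *Gatsl2* was number 16, *Ppp1r1a* 20, *Mlxipl* 21, *Wnt4* 26, *Ttc28* 44, *Kdm2b* 82 and *Fam151a* 207, whereas 79.0% of genes had a lower ratio than *C2cd4b*. The IFN-γ ranking placed *Ppp1r1a* at number 10 and *C2cd4b* at 98. With both cytokines *Ttc28* was number 22 and *Kdm2b* 50.

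These ratios rest on total UMIs, of which the hormone genes took 47.6% in untreated β-cells, 28.6% with IL-1β, 34.6% under IFN-γ and 37.9% with both. The median log2 ratio of all tested genes was accordingly 0.40 with IL-1β, 0.31 under IFN-γ and 0.07 with both, and became −0.05, −0.01 and −0.18 with totals that omit them. Relative to the median gene, the IL-1β decreases were larger, at 7.34-fold for *Gatsl2*, 7.0-fold for *Ppp1r1a* and 3.12-fold for *Fam151a*, and the *C2cd4b* increase was smaller, at 1.41-fold. Leaving out the hormone genes also moved the split of all calls with IL-1β from 18.1% lower to 55.8% lower, with IFN-γ from 2.95% to 20.1% and with both from 41.6% to 60.1%. Each of the 8 genes kept its direction in β-cells under the 3 scalings, and *Fam151a* with both cytokines passed 2-fold only with the hormone genes omitted, at 2.20-fold lower.

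**Figure D2:**
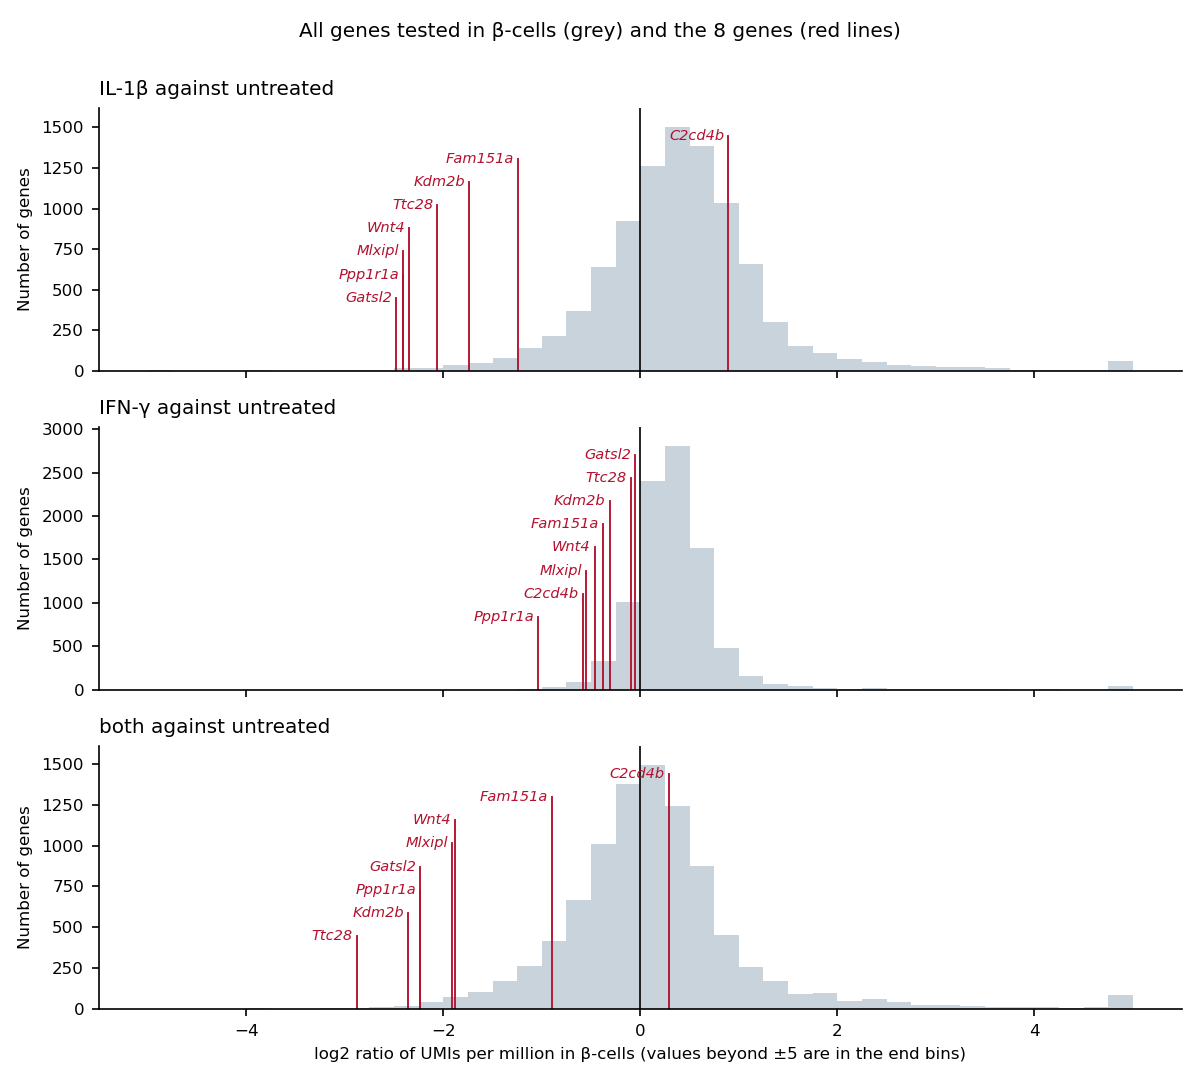
Number of the 9222 tested genes (vertical axis) by log2 ratio to the untreated library in β-cells (horizontal axis) for IL-1β, IFN-γ and both cytokines, with the 8 genes as red lines whose height carries no value. With IL-1β, 7 lines lie to the left of −1 and *C2cd4b* lies at 0.89. With IFN-γ all 8 lines lie between −1.03 and −0.05.

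Compared with IL-1β alone, *Mlxipl* was 1.41-fold higher with both cytokines (1.22 to 1.63), *Wnt4* 1.37-fold (1.26 to 1.5), *Fam151a* 1.28-fold (1.17 to 1.39), *Gatsl2* 1.18-fold (1.03 to 1.36) and *Ppp1r1a* 1.13-fold (1.03 to 1.23). *Ttc28* was 1.76-fold lower (1.5 to 2.06), *Kdm2b* 1.53-fold lower (1.32 to 1.78) and *C2cd4b* 1.52-fold lower (1.46 to 1.59). Thus 5 of the 8 genes were above 1, beside 23.4% of all tested genes with totals, 39.0% with the hormone genes omitted and 52.7% with median-of-ratios scaling, the last values over the 9216 genes with UMIs in both libraries. The median log2 ratio of those genes was −0.32, −0.12 and 0.03 in the same order. The directions of the 8 genes held under all 3 scalings, where *Ttc28* ranged from 0.569 to 0.723 times its IL-1β level and *Mlxipl* from 1.41 to 1.79 times.

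In α-cells the genes divided into some at levels near those of β-cells and others that were low. In the untreated library *Wnt4* in α-cells reached 76.3% of its β-cell level (67.1 to 86.5), *Gatsl2* 164% (144 to 187) and *C2cd4b* 39.9% (31.5 to 50.0). *Kdm2b* reached 16.5% (9.60 to 26.5), *Ttc28* 8.78% (4.38 to 15.7) and *Ppp1r1a* 5.62% (3.48 to 8.60). *Ins1* and *Ins2*, which α-cells should lack, were at 1.13% (1.06 to 1.19) and 1.40% (1.35 to 1.44), a measure of free RNA. *Fam151a*, at 1.23% (0.15 to 4.46), and *Mlxipl*, at 3.19% (0.87 to 8.18), had intervals that reached this background, so their UMIs in untreated α-cells are not read as expression. With both cytokines *Mlxipl* in α-cells reached 19.5% of its β-cell level (9.71 to 35.2), on 11 UMIs, where *Ins1* stood at 0.35%.

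Of the genes above background in α-cells, *Wnt4*, *Gatsl2* and *C2cd4b* had the most UMIs. *Wnt4* in α-cells stood at 292 CPM untreated, 35.6 with IL-1β, 196 under IFN-γ and 49.5 with both, 8.18-fold lower with IL-1β (6.35 to 10.6). *Gatsl2* stood at 297, 81.4, 322 and 102 CPM in the same order, 3.65-fold lower with IL-1β (3.01 to 4.43). Again the untreated and IFN-γ libraries were high and both libraries with IL-1β low. *C2cd4b* in α-cells stood at 89.2 CPM untreated, 263 with IL-1β, 43.9 under IFN-γ and 612 with both, 2.95-fold higher with IL-1β (2.32 to 3.78) and 6.86-fold higher with both (5.44 to 8.76). Its α-cell level with both cytokines was 224% of the β-cell level in that library (209 to 241). Unlike in β-cells, the combination exceeded IL-1β alone, by 2.33-fold (2.10 to 2.59). *Kdm2b* in α-cells was 1.30-fold lower with IL-1β, with an interval that spans no difference (0.681 to 2.39), and 2.61-fold lower with both (1.15 to 6.16). The α-cell ratio of *Ttc28* under IFN-γ was 1.52 (0.772 to 3.26), an interval that also spans no difference.

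At least 2-fold lower in α-cells were 5 genes with IL-1β, 2 under IFN-γ and 5 with both, of the 7 that passed 5 CPM, beside 10.6%, 2.5% and 15.5% of the 9726 genes tested there. *Fam151a* did not pass this limit. With hormone genes omitted the split of α-cell calls with IFN-γ moved from 26.0% to 37.3% lower, and with median-of-ratios scaling that with both moved from 60.4% to 44.8%. Several of those calls rest on few UMIs, such as 10 against 21 for *Ppp1r1a*, 13 against 11 for *Ttc28* and 3 against 4 for *Mlxipl* with IL-1β. The intervals of *Ttc28* (0.892 to 5.32-fold lower) and *Mlxipl* (0.586 to 23.7-fold lower) span no difference, and the untreated *Mlxipl* level was at background. Those of *Ppp1r1a* excluded 1, at 5.46-fold lower with IL-1β (2.46 to 13.0) and 3.69-fold lower with IFN-γ (1.81 to 7.68).

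The δ-cells were few. In the untreated library *Gatsl2* in δ-cells reached 129% of its β-cell level (97.6 to 168), *Mlxipl* 58.3% (35.6 to 90.2), *C2cd4b* 26.2% (14.3 to 44.0), *Ppp1r1a* 22.5% (14.3 to 33.8) and *Wnt4* 12% (6.00 to 21.5). *Kdm2b* reached 10.6% (2.19 to 31.2) and *Ttc28* 8.75% (1.80 to 25.6), on 3 UMIs each, and *Ins1* stood at 0.96% there. *Mlxipl*, at background in untreated α-cells, was well above it in δ-cells, at 83.6 CPM untreated, 21.3 with IL-1β, 63.6 under IFN-γ and 26.8 with both. It was 3.93-fold lower with IL-1β (1.59 to 11.0). *Gatsl2* in δ-cells stood at 234, 76.1, 174 and 66.9 CPM in the same order, and *C2cd4b* at 58.5, 195, 47.7 and 83.6 CPM, 3.33-fold higher with IL-1β (1.85 to 6.42). At least 2-fold lower were 4 of the 7 genes that passed with IL-1β, none under IFN-γ and 4 with both, beside 17.4%, 9.87% and 23.9% of the 9853 genes tested. Several of these calls rest on few UMIs. With IL-1β *Wnt4* had 2 UMIs against 11 untreated (1.65 to 70.2-fold lower), and *Ppp1r1a* 5 against 23 (2.35 to 21.3-fold lower). *Ttc28* and *Kdm2b* each had 3 UMIs in untreated δ-cells, so a decrease was not detectable at this depth, and the intervals of their ratios to the untreated library all included 1.

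Pancreatic polypeptide (PP) cells, 30 in the untreated library and 30, 58 and 47 in the others, were also few. *Wnt4* stood at 455 CPM untreated, 38.6 with IL-1β, 212 under IFN-γ and 46.5 with both, 11.8-fold lower with IL-1β (6.06 to 26.2). *Gatsl2* in PP-cells stood at 123, 47.2, 115 and 23.3 CPM in the same order, 2.60-fold lower with IL-1β (1.33 to 5.57) and 5.29-fold lower with both (2.70 to 11.3). *C2cd4b* had 3 UMIs untreated and 44 with IL-1β, a ratio of 24.1 (7.72 to 121), and 35 with both cytokines. The increase in *C2cd4b* with IL-1β was thus present in β-, α-, δ- and PP-cells.

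**Figure D3:**
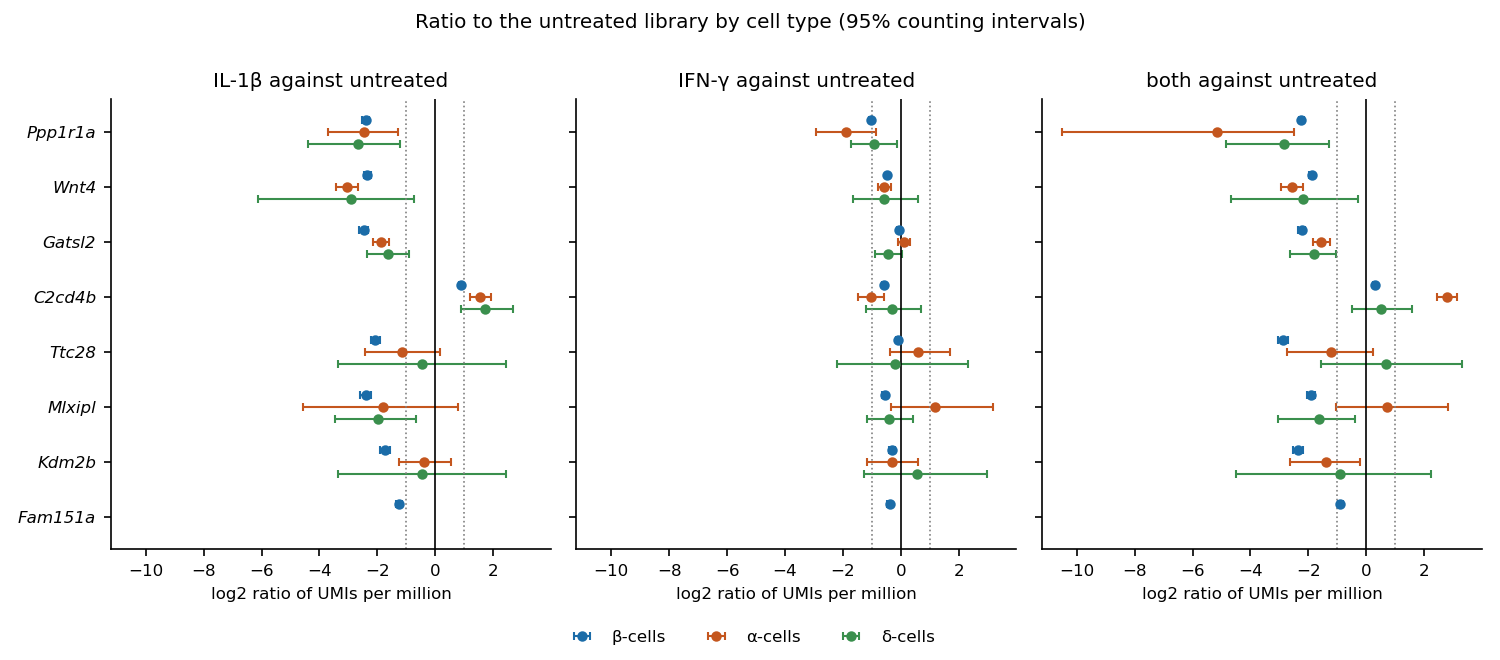
Log2 ratio of CPM to the untreated library for each gene (rows) in β-cells (blue), α-cells (orange) and δ-cells (green), with 95% counting intervals and dotted lines at 2-fold. *Wnt4* and *Gatsl2* lie left of −1 in all 3 cell types with IL-1β, and *C2cd4b* lies right of 0 in all 3. The δ-cell point of *Wnt4* with IL-1β rests on 2 UMIs against 11 untreated. *Fam151a* is shown in β-cells alone because it did not pass 5 CPM elsewhere.

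A sum over cells does not say whether few or many cells carried a gene, so β-cells were thinned to 4000 UMIs and the genes with at least 1 UMI were counted. Left out as shallower were 38 untreated β-cells, 74 with IL-1β, 50 under IFN-γ and 31 with both. Thinned β-cells held on average 4.17 of the 8 genes untreated, 1.82 with IL-1β, 3.22 under IFN-γ and 1.86 with both. These counts include *C2cd4b*, detected in 48.4% of thinned cells untreated and 67.4% with IL-1β. The IL-1β counts therefore understate the fall in the other genes. At least 4 of the genes were found in 69.7% of untreated β-cells, 8.71% with IL-1β, 42.7% under IFN-γ and 10.4% with both. The whole distribution had moved, while 9.44% of thinned β-cells with IL-1β and 12% with both held none of the 8 genes, against 0.781% untreated.

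*Ppp1r1a* was detected in 74.6% of thinned untreated β-cells (71.9 to 77.1), 26.2% with IL-1β (23.6 to 28.9), 50.0% with IFN-γ (47.1 to 52.8) and 28.8% with both (26.3 to 31.3). *C2cd4b* was detected in 48.4% (45.5 to 51.4), 67.4% (64.5 to 70.1), 34.6% (31.9 to 37.3) and 49.4% (46.6 to 52.2) in the same order. Its untreated and doubly treated shares thus did not differ beyond counting error, although its level was 1.22-fold higher with both (1.17 to 1.27). Without thinning the *Ppp1r1a* shares were 92.9%, 42.9%, 77.4% and 58.7%. As a background, *Ppp1r1a* had a UMI in 6.25% of untreated macrophages before thinning, at a median of 10068.5 UMIs per cell.

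**Figure D4:**
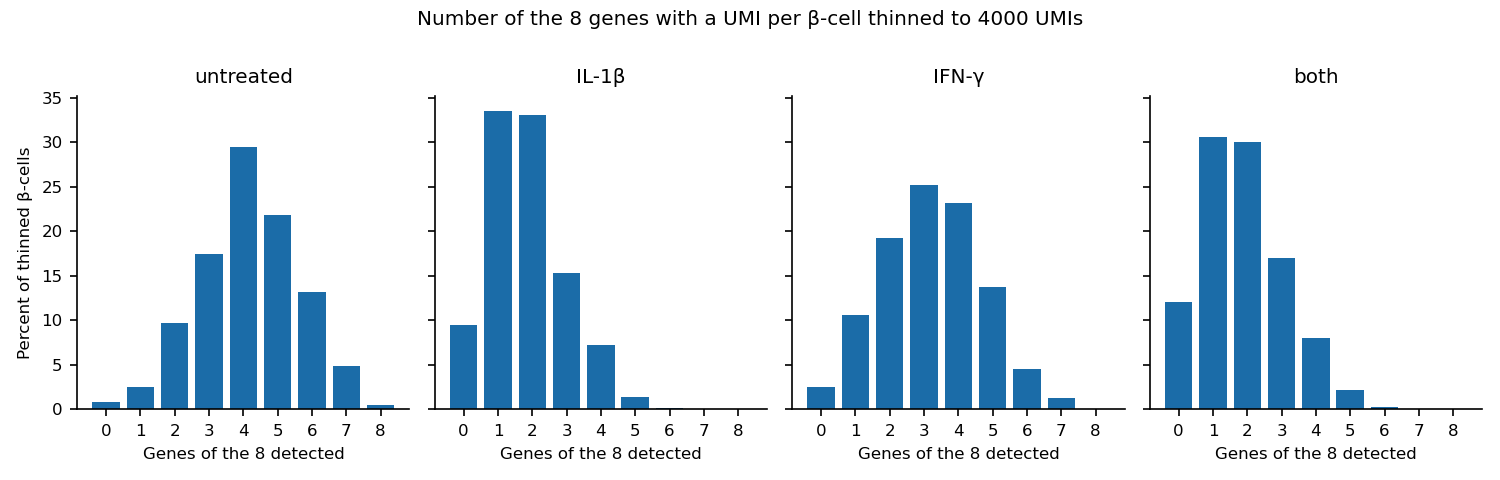
Percent of β-cells (vertical axis) by the number of the 8 genes with at least 1 UMI after thinning to 4000 UMIs per cell (horizontal axis), 1 panel per library. The mean falls from 4.17 genes untreated to 1.82 with IL-1β and 1.86 with both, with IFN-γ between them at 3.22. The 8 genes include *C2cd4b*, which was detected more often with IL-1β than untreated.

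The β-cells of a library were then divided by *Nos2*, the inducible nitric oxide synthase, of which 29.3% of β-cells with IL-1β and 71.3% with both had at least 1 UMI. *Nos2*-positive cells were deeper, with medians of 9291 against 7973 UMIs with IL-1β and 12858 against 10583 with both, so shares were compared after thinning. *Wnt4* was found in 13.0% of *Nos2*-positive (9.59 to 17.0) and 24.3% of *Nos2*-negative β-cells (21.3 to 27.6) with IL-1β, and in 23.2% (20.5 to 26.1) and 43.7% (38.4 to 49.1) with both. *Ppp1r1a* was found in 20.1% (15.9 to 24.7) and 29.0% (25.8 to 32.4) with IL-1β, and in 26.4% (23.5 to 29.4) and 35.1% (30.05 to 40.3) with both. In each library 7 of the 8 genes had the lower share in *Nos2*-positive cells (6 without thinning), beside 56.6% of all tested genes with IL-1β and 63.2% with both. The intervals were apart for these 2 genes, and *C2cd4b* was the exception in both. The share of all tested genes with intervals apart was not computed here, so nothing is read from this count. The identity gene *Mafa* was lower in *Nos2*-positive cells as well, at 7.96% against 19.1% with IL-1β. In *Nos2*-negative cells, meaning those with no *Nos2* UMI counted, *Ppp1r1a* was at 89.4 CPM and *Gatsl2* at 35.5 CPM with IL-1β. All untreated β-cells stood at 427 and 181 CPM. Whether *Nos2* has a part in the decreases was not tested.

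The β-cells were also divided by 1 heat shock gene, *Hspa1a*. Cells with at least 10 *Hspa1a* UMIs per 10000 made up 1.68% of untreated β-cells, 8.76% with IL-1β, 6.07% under IFN-γ and 6.81% with both. With IL-1β 3 of the 8 genes were detected more often in these heat-shock-high cells with intervals apart, *Wnt4* in 45.8% (34.8 to 57.1) against 18.8% (16.4 to 21.3) of the other cells, *Ppp1r1a* in 49.4% (38.2 to 60.6) against 24.3% (21.7 to 27.1) and *Mlxipl* in 21.7% (13.4 to 32.1) against 8.43% (6.79 to 10.3). *C2cd4b* showed the opposite, at 42.2% (31.4 to 53.5) against 69.4% (66.5 to 72.3), and was the only 1 of the 8 with a lower share, beside 61.6% of all tested genes. The intervals of the other 4 overlapped. The share of all tested genes with intervals apart was not computed for this division in any library. Nothing is therefore read from the counts of members with intervals apart. With both cytokines *Wnt4* was again higher, at 53.7% (42.3 to 64.8) against 27.1% (24.6 to 29.8), and none of the 8 had a lower share, beside 55.4% of all genes. In the untreated library 7 of the 8 genes had a lower share in heat-shock-high cells, 4 of them with intervals apart (*Gatsl2*, *Fam151a*, *Kdm2b* and *Ttc28*), with *Gatsl2* at 17.6% (3.80 to 43.4) against 52.0% (49.0 to 54.9), although only 17 such cells could be thinned and 60.1% of all genes were lower too. With IFN-γ 5 of the 8 were lower, beside 62.6% of all genes, with intervals apart for *Gatsl2* at 27.9% (17.7 to 40.1) against 46.0% (43.1 to 48.9) and *Ttc28* at 22.1% (12.9 to 33.8) against 37.1% (34.3 to 39.9). Heat-shock-high cells were shallower with IL-1β, at a median of 6423 against 8550 UMIs, and before thinning 3.92% of them had a *Nos2* UMI against 31.7% of the others. With both cytokines these shares were 40.9% and 73.5%, so the 2 divisions of the cells are not separate in either library.

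**Figure D5:**
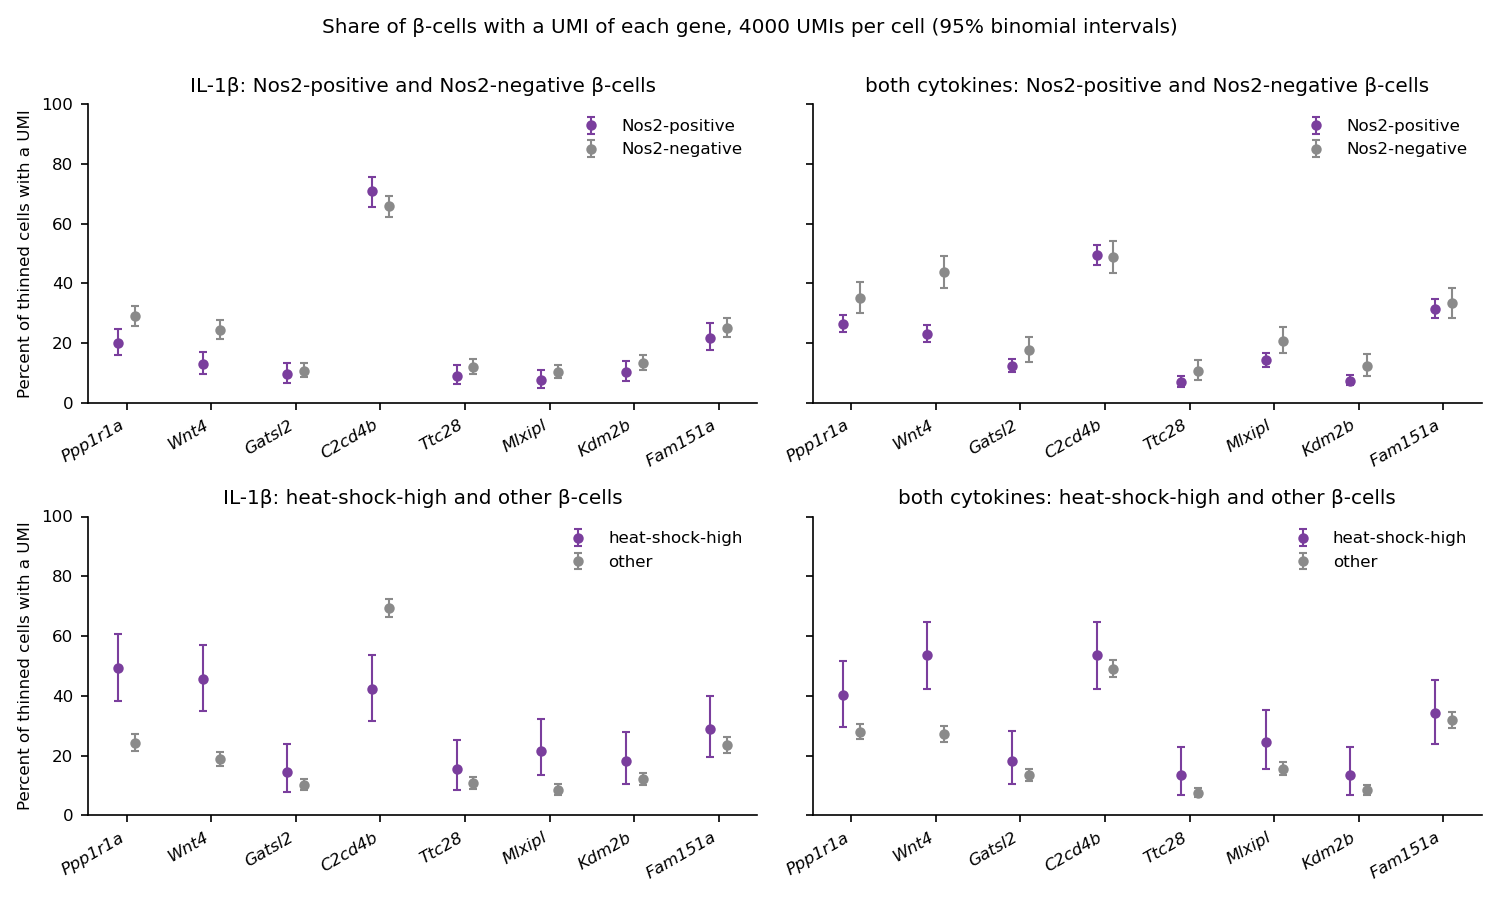
Percent of β-cells with at least 1 UMI of each gene after thinning to 4000 UMIs per cell, with 95% binomial intervals, for *Nos2*-positive and *Nos2*-negative cells (top) and heat-shock-high and other cells (bottom) with IL-1β (left) and both cytokines (right). *Wnt4* lies lower in *Nos2*-positive cells and higher in heat-shock-high cells in both libraries.

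The partners of these genes were examined in β-cells through lists assembled with earlier results of these data known, each beside the median of all tested genes (0.40, 0.31 and 0.07 on the log2 scale for IL-1β, IFN-γ and both). Of 16 tested genes for protein phosphatase-1 and protein kinase A, none was 2-fold lower with IL-1β, 3 were higher, and the median was 0.73, beside 3.72% lower and 16.8% higher of all tested genes. The higher ones included *Ppp1r15a*, the stress-induced phosphatase subunit GADD34, at 18.3 CPM untreated and 58.0 with IL-1β. With the hormone genes omitted *Ppp1r15a* stayed past 2-fold, *Ppp1cb* and *Ppp1r15b* did not, and 7.12% of all tested genes were as much higher. With both cytokines 1 gene was 2-fold lower and 1 higher, beside 7.66% and 10.8% of all tested genes. The lower one was *Ppp1r10*, a nuclear targeting subunit, at 20.7 against 65.9 CPM. Ratios below 1, the direction of the inhibitor, were found for 4 of the 16 genes with IL-1β and 6 with both, beside 27.0% and 45.2% of all tested genes.

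Among 16 tested Wnt pathway genes none was 2-fold lower in any treated library, beside 3.72%, 0.141% and 7.66% of all tested genes, and the medians were 0.39, 0.30 and 0.08. Higher were 2 genes with IL-1β, 1 under IFN-γ and 3 with both, beside 16.8%, 4.64% and 10.8% of all tested genes. *Tcf7l2*, a transcription factor of the pathway, was 2.37-fold higher under IFN-γ (1.85 to 3.04) and 2.10-fold higher with both (1.64 to 2.70). Neither ratio passed 2-fold with the hormone genes omitted, where 2.68% and 8.01% of all tested genes were as much higher. *Ctnnb1*, which encodes β-catenin, stood at 134 CPM untreated and 476 with IL-1β, 3.55-fold higher (3.38 to 3.72), and at 341 with both. The receptor gene *Fzd7* stood at 2.88 and 11.1 CPM, 3.83-fold higher with IL-1β (2.76 to 5.36). No other Wnt ligand in the list reached a mean of 5 CPM in β-cells.

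Of 27 tested genes between amino acid sensing and mTORC1, with totals none was 2-fold lower and 1 higher with IL-1β, beside 3.72% and 16.8% of all tested genes. With both cytokines 1 was lower and 2 were higher, beside 7.66% and 10.8%. The lower one was *Sesn1*, a leucine-sensing sestrin, at 3.44 against 8.85 CPM. *Seh1l*, a GATOR2 subunit, was 3.18-fold higher with IL-1β (2.86 to 3.54). *Lamtor4*, at 38.3 CPM with IL-1β against 74.6 untreated, passed 2-fold lower with the hormone genes omitted and with median-of-ratios scaling. With the hormone genes omitted the IL-1β shares of all tested genes were 9.01% lower and 7.12% higher. In the KDM2B list no gene of 14 tested was 2-fold lower in any treated library, where the all-gene shares were at most 7.66%, and 2 were higher with IL-1β and 1 with both. Of these *Usp7*, a deubiquitinase, was 2.02-fold higher with IL-1β (1.82 to 2.23). *Ezh1*, a Polycomb methyltransferase, was 2.36-fold higher with IL-1β (2.02 to 2.76) at levels of 15.2 and 35.8 CPM. With the hormone genes omitted neither passed 2-fold, and 7.12% rather than 16.8% of all tested genes were as much higher with IL-1β. The median of that list was 0.57 with IL-1β and −0.02 with both.

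The ChREBP list held genes past 2-fold on both sides. With IL-1β 2 of its 17 tested genes were 2-fold lower and 5 higher, and with both cytokines 4 were lower and 5 higher, with medians of 0.13 and −0.29. Over all tested genes 3.72% were lower and 16.8% higher with IL-1β, and 7.66% and 10.8% with both, or 9.01% and 7.12% and 12.1% and 8.01% with the hormone genes omitted. *Slc2a2*, the glucose transporter GLUT2, stood at 138 CPM untreated, 13.6 with IL-1β and 10.2 with both. The lipogenic genes *Fasn* and *Scd2*, picked after their values were seen, were lower with both cytokines, at 13.7 against 31.9 CPM and 21.5 against 78.6. Others of the list went the other way, such as *Elovl6* at 10.7 CPM untreated, 23.4 with IL-1β and 17.9 with both. *Me1* stood at 14.2, 58.2 and 32.9 CPM in the same order. *Arrdc4*, an arrestin-domain gene described as a ChREBP target, was at 4.08 CPM untreated, 39.2 with IL-1β and 62.9 with both, and *Rgs16* at 4.72, 21.8 and 23.7.

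*C2cd4a*, the neighbouring family member of *C2cd4b*, stood at 5.77 CPM untreated, 26.1 with IL-1β, 8.71 under IFN-γ and 16.3 with both, 4.52-fold higher with IL-1β (3.62 to 5.68). How any reads shared by these related genes were assigned is unknown from the sources used here, so both values are uncertain in that respect. *Fam151b* did not pass 5 CPM. For reference, 8 of 21 tested β-cell identity genes were 2-fold lower with IL-1β and 10 with both, beside 3.72% and 7.66% of all tested genes, and 2 (*Neurod1* and *Glis3*) were 2-fold higher with IL-1β, with *Mafa* at 618 CPM untreated, 70.2 with IL-1β, 462 under IFN-γ and 52.2 with both. Its 8.80-fold decrease with IL-1β (8.15 to 9.50) exceeded that of each of the 8 genes.

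Across the 12 sums of β-, α- and δ-cells in 4 libraries, the genes whose log2 level followed each member most closely were sought among 5156 genes. These points share libraries and cell types, and the coefficients only describe the pattern. *Fam151a* was closest to *Gpr45* (r = 0.98), *Trpm5* (0.97) and *Ins1* (0.97), *Ppp1r1a* to *Spock2* (0.97), *Wnt4* to *Esyt1* (0.95), and *Mlxipl* to *Rasgrf1* (0.95). In α- and δ-cells *Fam151a* had at most 8 UMIs in any library. Its coefficients therefore largely set β-cells against types where it was near the floor. *Gatsl2* was closest to *Snhg20* (0.95) and *Gtf2i* (0.95), *Ttc28* to *Mafa* (0.91) and then to its fellow member *Kdm2b* (0.89), and *Kdm2b* to *Atp2a2* (0.94), *Ucn3* (0.93) and *Slc2a2* (0.93). *C2cd4b* was closest to *Hmox1* (0.89), and the third on its list, *Lcn2*, stood at 27.0 CPM in untreated β-cells and 515 with IL-1β. A high coefficient over these points did not always mean a like cytokine response in β-cells, where *Gpr45* stood at 47.8 CPM untreated and 59.2 with IL-1β, *Atp2a2* at 494 and 491, and *Rasgrf1* at 85.2 and 66.2. Between the members themselves the coefficient ran from −0.66 for *Gatsl2* and *C2cd4b* to 0.89 for *Ttc28* and *Kdm2b*.

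Markers of other cells moved between the β-cell sums. The 8 macrophage markers summed to 81.2 CPM untreated, 36.9 with IL-1β, 41.8 under IFN-γ and 136 with both, with 0, 3, 1 and 2 of them at 0. *C1qa* alone gave 70.7, 36.4, 40.6 and 135 CPM of these sums. The higher sum with both cytokines was thus that of *C1qa*, and the rest of the list was highest untreated. The 8 acinar markers summed to 73.9, 15.2, 71.9 and 304, led by *Ctrb1*. The 8 α-cell markers summed to 1082, 1739, 1233 and 1261 CPM, and the 8 δ-cell markers to 164, 563, 210 and 352, led by *Sst* in the treated libraries. Their part in the β-cell values was not tested, and in macrophages themselves *Wnt4*, *Mlxipl* and *Fam151a* each had at most 1 UMI in any library, whereas *Kdm2b* had 9, 5, 11 and 3 UMIs.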

How the data were processed

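Deposited UMI counts per gene and cell were used, which the authors made with Cell Ranger on mm10 per the labels (the matrix headers name software version 3.0.0). The labels name version 2 of the 3′ kit and the methods another. The 8 genes and all gene lists were chosen with earlier results of these data known. The filter on cells was 200 to 4000 genes and no more than 12% of UMIs from mitochondrial genes. A cell was assigned to β (*Ins1* and *Ins2*), α (*Gcg*), δ (*Sst*) or PP (*Ppy*) when that hormone made up at least 75% of the UMIs of the 4 hormones and at least 5% of all UMIs, which also leaves out cells with 2 hormones. No doublet caller was run. Counts were summed per type and library and divided by the total (CPM). Levels carry exact Poisson intervals, ratios exact conditional intervals and shares exact binomial (Clopper-Pearson) intervals at 95%. PCR duplicates are collapsed by UMI. Genes with a mean of at least 5 CPM over the 4 libraries were tested for a 2-fold difference, and with 1 library per condition no p-value was computed. Cells were thinned to 4000 UMIs by sampling without replacement, leaving out shallower cells (38 of 1190 untreated β-cells). Named genes were the 8 members, the 3 genes with the highest Pearson coefficient to each and, per list, up to 4 with the largest difference past 1.5-fold. Other genes named were partners or landmarks, or are said to have been picked after their values were seen. The ratio calculation was tested on simulated data. The software was numpy 2.4.6, pandas 2.3.3, scipy 1.17.1 and matplotlib 3.10.9 under Python 3.11.15. Library totals were 50731370 UMIs untreated, 20056630 with IL-1β, 31209339 under IFN-γ and 25716645 with both. Alternatives changed the scaling, the cell filters, the hormone rule and the fold. Results for some cell type markers are not reported here.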

Additional observations from a re-analysis of the deposited data

How the results depend on the processing

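In β-cells all 24 log2 ratios of the 8 genes to the untreated library kept their sign under each of the 10 alternatives run. The count of genes at least 2-fold lower in β-cells with IFN-γ went from 1 to 0 without the upper gene limit, and to 2 at a fold of 1.5. In α-cells with IFN-γ it went from 2 to 1 with the mean over cells, without the upper gene limit, with a 20% mitochondrial limit or with a 90% hormone share. In δ-cells with IFN-γ it went from 0 to 2 at a fold of 1.5 or with a leading hormone of 10% of all UMIs, to 3 without the upper gene limit or with a 90% hormone share, and to 1 with a 20% mitochondrial limit or with *Ppy* not counted, the last chosen after seeing the data. The 1 reversed ratio was *Mlxipl* in α-cells with IFN-γ, with a log2 ratio of 1.19, and of −0.15 without the upper gene limit. Genes with a lower share in heat-shock-high cells went from 1 to 2 with IL-1β and from 0 to 2 with both when cells were not thinned. The causes were not tested. The share of all genes 2-fold lower in β-cells with IL-1β was 3.72%, and 5.71% at a limit of 1 CPM and 7.43% with no limit. The same shares were 0.141%, 0.615% and 3.36% with IFN-γ and 7.66%, 11.6% and 14.9% with both, and in α-cells with IFN-γ 2.5%, 5.92% and 7.97%. No paired analysis was possible because each condition has 1 library. α- and δ-cell ratios are limited by UMIs, and the untreated library lost 843 barcodes to the upper gene limit.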
